A study of Homo sapiens with 20 samples.

Results

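CD133- EIF4G2KD cells are HEC-1A cells, an established line of human endometrial adenocarcinoma, that carry a stable shRNA against EIF4G2 (also called DAP5) and lack the surface antigen CD133 by sorting. They made up 5 of the 19 libraries analysed here and of the 20 samples labelled, and every library with that label was taken. They were set against the mean of the other 3 populations, which were CD133- Control (5 libraries), CD133+ EIF4G2KD (5 libraries) and CD133+ Control (4 libraries). Control cells carried an shRNA against GFP. 1 more CD133+ Control sample is labelled as having failed its quality check and was not used. RNA of 15000 sorted cells per sample went into bulk MARS-seq, a method that reads tags near the 3' end of messenger RNA. The knock-down rests on 1 shRNA in a puromycin-selected pool of 1 line, and the libraries are numbered 1 to 5 although the design describes 4 independent sorts. The p-values therefore measure the spread between these libraries, part of which may be technical. The question was which genes set the CD133- knock-down cells apart, and whether they did so without the CD133- EIF4G2KD libraries numbered 4 and 5.

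EIF4G2 is a translation initiation factor related to EIF4G1 that lacks the binding site for the cap-binding protein EIF4E, and it is known for cap-independent and other alternative modes of initiation. It is needed for differentiation of embryonic stem cells. CD133, the product of PROM1, is a membrane protein widely used to sort tumour cells with stem-like properties, in endometrial carcinoma among others. A change of RNA level as measured here is not a measure of translation.

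Depth was 1679447 to 5234905 counts per library over the 19 libraries (median 3047418), and the CD133- EIF4G2KD libraries had a median of 2537807. EIF4G2 itself (chromosome 11, 10797050 to 10808940, GRCh38) had 163, 102, 164, 51.1 and 36.8 CPM (counts scaled to an equal library total after TMM normalization) in CD133- EIF4G2KD libraries 1 to 5, against a lowest value of 129.5, a median of 299 and a highest of 377 CPM in the 14 others. The groups overlapped only through the third CD133+ EIF4G2KD library, which was the lowest of the 14. The difference of the mean log2 values was -1.66 (exact 2-sided permutation test over all regroupings of 5 against 14 libraries, p = 0.000344), and without libraries 4 and 5 it was -0.99 (exact p = 0.00588). The CD133+ libraries labelled EIF4G2KD had 350, 270, 129.5, 231 and 253 CPM of EIF4G2, against 275 to 377 CPM in CD133+ Control and 193 to 360 CPM in CD133- Control. Of them numbers 2 to 5 lay below every CD133+ Control library, and number 1 did not. Only number 3 lay below every CD133- Control library as well. Their mean was 247 CPM, against 337 CPM in CD133+ Control, a smaller loss than in CD133- EIF4G2KD (103 against 291 CPM in CD133- Control). The label CD133+ EIF4G2KD is thus used here with only a partial loss of the target RNA shown. PROM1, on whose product the cells were sorted, had 0.428 to 1.83 CPM in CD133- EIF4G2KD and 0.513 to 3.31 CPM in CD133- Control, against 12.9 to 26.4 CPM in CD133+ EIF4G2KD and 11.6 to 16.5 CPM in CD133+ Control. All 8 epithelial markers (EPCAM, CDH1, PAX8, MUC1 and 4 keratins) were present, and their summed level was 8727 to 12068 CPM in CD133- EIF4G2KD. None of the 8 stromal and 6 endothelial markers was in the table, and of 11 immune markers only CD8A and CD68 were, with a summed level of 1.68 to 5.07 CPM in CD133- EIF4G2KD. In bulk RNA, fewer cells of a type and less RNA per cell cannot be told apart.

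Some libraries stood apart, and results that rest on them are given with and without them. CD133- EIF4G2KD libraries 4 and 5 had the deepest loss of EIF4G2 and the largest skew by base composition. In them the genes richest in G and C exceeded the poorest by 0.84 and 1.21 on the log2 scale, while the other 17 libraries lay between -0.42 and 0.39. The library labelled CD133- Control 2 leaned towards CD133- EIF4G2KD. It had 193 CPM of EIF4G2, against 245 to 360 CPM in the other 4 CD133- Control libraries. PPARG was at 6.20 CPM and NID2 at 1.16 CPM in it, against 25.7 to 49.9 CPM of PPARG and 5.64 to 9.45 CPM of NID2 in those 4. Whether it holds other cells than its label says was not tested. Every fold change and count against CD133- Control includes it unless stated.

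Against the mean of the other 3 populations, 478 of 10338 genes passed all thresholds. Of these, 208 were higher in CD133- EIF4G2KD and 270 were lower. A call needed an adjusted p below 0.05 from edgeR's quasi-likelihood test, a log2 fold change beyond 0.58 (1.5-fold) and a mean normalized count above 10, the thresholds of the study. This was 4.62% of the genes tested (2.01% higher and 2.61% lower). The fit had the replicate number as a block, and without the block 192 genes were called. Leaving out CD133- EIF4G2KD 5 or 4 gave 298 or 307 calls, and leaving out CD133- EIF4G2KD 3 or CD133+ EIF4G2KD 3 gave 922 or 921. Without the library labelled CD133- Control 2 there were 519 calls, 465 of them among the 478.

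The called genes differed most from CD133+ cells. The 208 higher genes had a median log2 fold change of 0.98 against CD133+ EIF4G2KD, 0.85 against CD133+ Control and 0.56 against CD133- Control. The 270 lower genes had medians of -0.94, -1.07 and -0.75 against the same populations, while the medians of all genes tested lay between -0.02 and 0.01. Taken pair by pair, 162 of the 208 higher genes passed the adjusted p against CD133+ EIF4G2KD, 130 against CD133+ Control and 25 against CD133- Control. Of all genes tested, 9.06%, 4.51% and 0.358% passed as higher. Of the 270 lower genes, 170 passed against CD133+ EIF4G2KD, 197 against CD133+ Control and 45 against CD133- Control, against 7.13%, 5.10% and 0.513% of all genes. By all the thresholds together, 962 genes were called against CD133+ EIF4G2KD (9.31%, with 5.20% higher and 4.10% lower), 663 against CD133+ Control (6.41%, with 2.85% higher and 3.56% lower) and 80 against CD133- Control (0.774%, with 0.300% higher and 0.474% lower). The last count was 1 without the replicate block, 3 without CD133- EIF4G2KD 4 and 5, 0 in a fit of only the 2 populations, and 233 without the library labelled CD133- Control 2. It was 0 in 4 of the fits that left out 1 library (CD133- EIF4G2KD 1, or CD133- Control 1, 4 or 5), where at least 1251 genes had an unadjusted p below 0.05, and 389 without CD133- EIF4G2KD 3. These comparisons share the CD133- EIF4G2KD libraries.

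**Figure D1:**
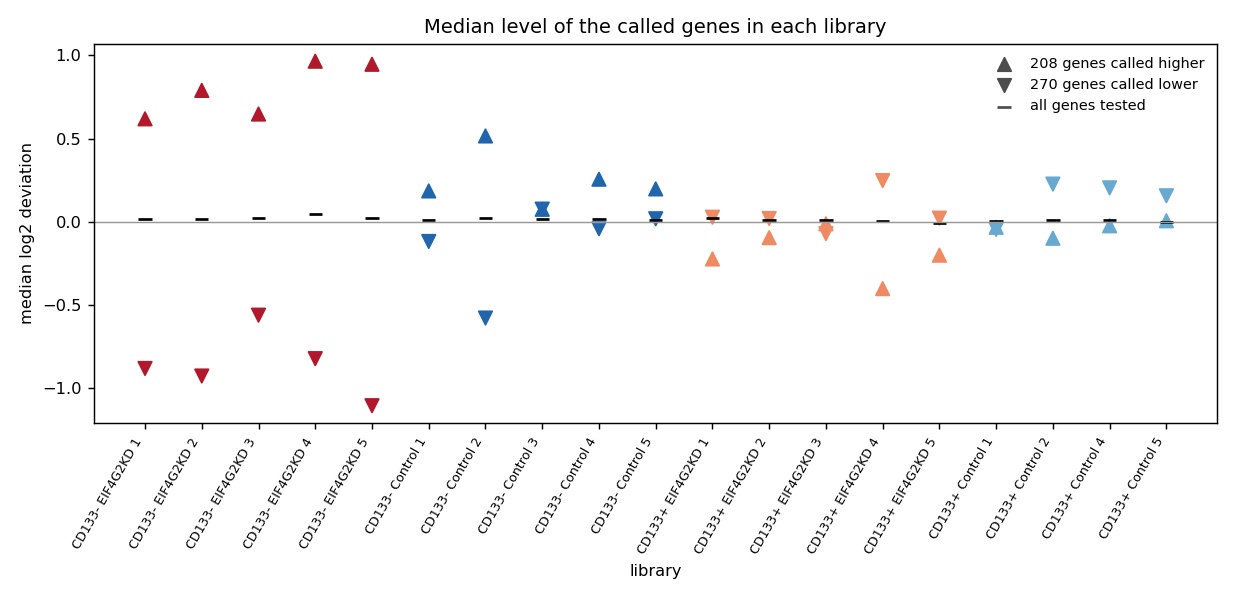
Median log2 deviation from the mean of the other 3 populations of the 208 genes called higher (upward triangles), the 270 called lower (downward triangles) and all genes tested (dashes), by library (x axis), with the CD133- EIF4G2KD libraries at the left. The libraries were used to choose the genes; CD133- EIF4G2KD 1 to 5 lie at 0.62 to 0.96 and -1.10 to -0.56, and the library labelled CD133- Control 2, at 0.52 and -0.58, is the nearest to them.

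Genes that differed from each of the 3 populations were taken from an intersection-union test, in which a gene's p is the largest of its 3 pairwise p-values and its 3 differences have 1 sign. It called 11 genes, 4 higher and 7 lower (0.106% of those tested, 0.0387% higher and 0.0677% lower), with adjusted p between 0.0398 and 0.0484. At an unadjusted p below 0.05 there were 609. The higher genes encode a guidance molecule, a secreted protease, a fatty acid and bile acid enzyme and a small cysteine-rich protein. The lower ones include a thrombin receptor and proteins best known from muscle and nerve.

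SEMA3F, a secreted semaphorin that binds neuropilins and repels axons and vessels, had 47.4, 64.0, 97.1, 129.9 and 86.0 CPM in CD133- EIF4G2KD, against a lowest value of 4.86, a median of 10.5 and a highest of 71.2 CPM in the 14 others. The highest of these was the library labelled CD133- Control 2, and the next was 15.6 CPM, so that without it the groups did not overlap. Its log2 fold change against the mean of the 3 was 2.88 ± 0.29 (SE; edgeR adjusted p = 9.48e-06), and it was 1.99, 3.57 and 3.06 against CD133- Control, CD133+ EIF4G2KD and CD133+ Control.

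CYSRT1, a cysteine-rich tail protein, had 144, 144, 166, 173 and 180.2 CPM in CD133- EIF4G2KD, against 10.5 to 154.5 CPM (median 47.0) in the 14 others. Here too the highest of the 14 was the library labelled CD133- Control 2, and without it the highest was 61.9 CPM. The log2 fold change was 2.09 ± 0.20 (SE; edgeR adjusted p = 3.80e-06), the largest pairwise one being 3.42 against CD133+ EIF4G2KD. HTRA1, a secreted serine protease that cleaves extracellular matrix, had 242, 242, 204, 244 and 248 CPM, against 56.3 to 208 CPM (median 91.2) in the 14 others. The 13 others without the library labelled CD133- Control 2 reached 121 CPM at most. HTRA1 rose by 1.41 ± 0.13 on the log2 scale (edgeR adjusted p = 3.80e-06), with 0.99, 1.53 and 1.73 against CD133- Control, CD133+ EIF4G2KD and CD133+ Control. SLC27A5, a bile acid and very long chain acyl-CoA ligase of the liver, had 77.2 to 156 CPM in CD133- EIF4G2KD and 39.4 to 89.4 CPM in the 14 others, a log2 fold change of 0.90 ± 0.12. Its gene overlaps ZNF446 on the opposite strand.

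**Figure D2:**
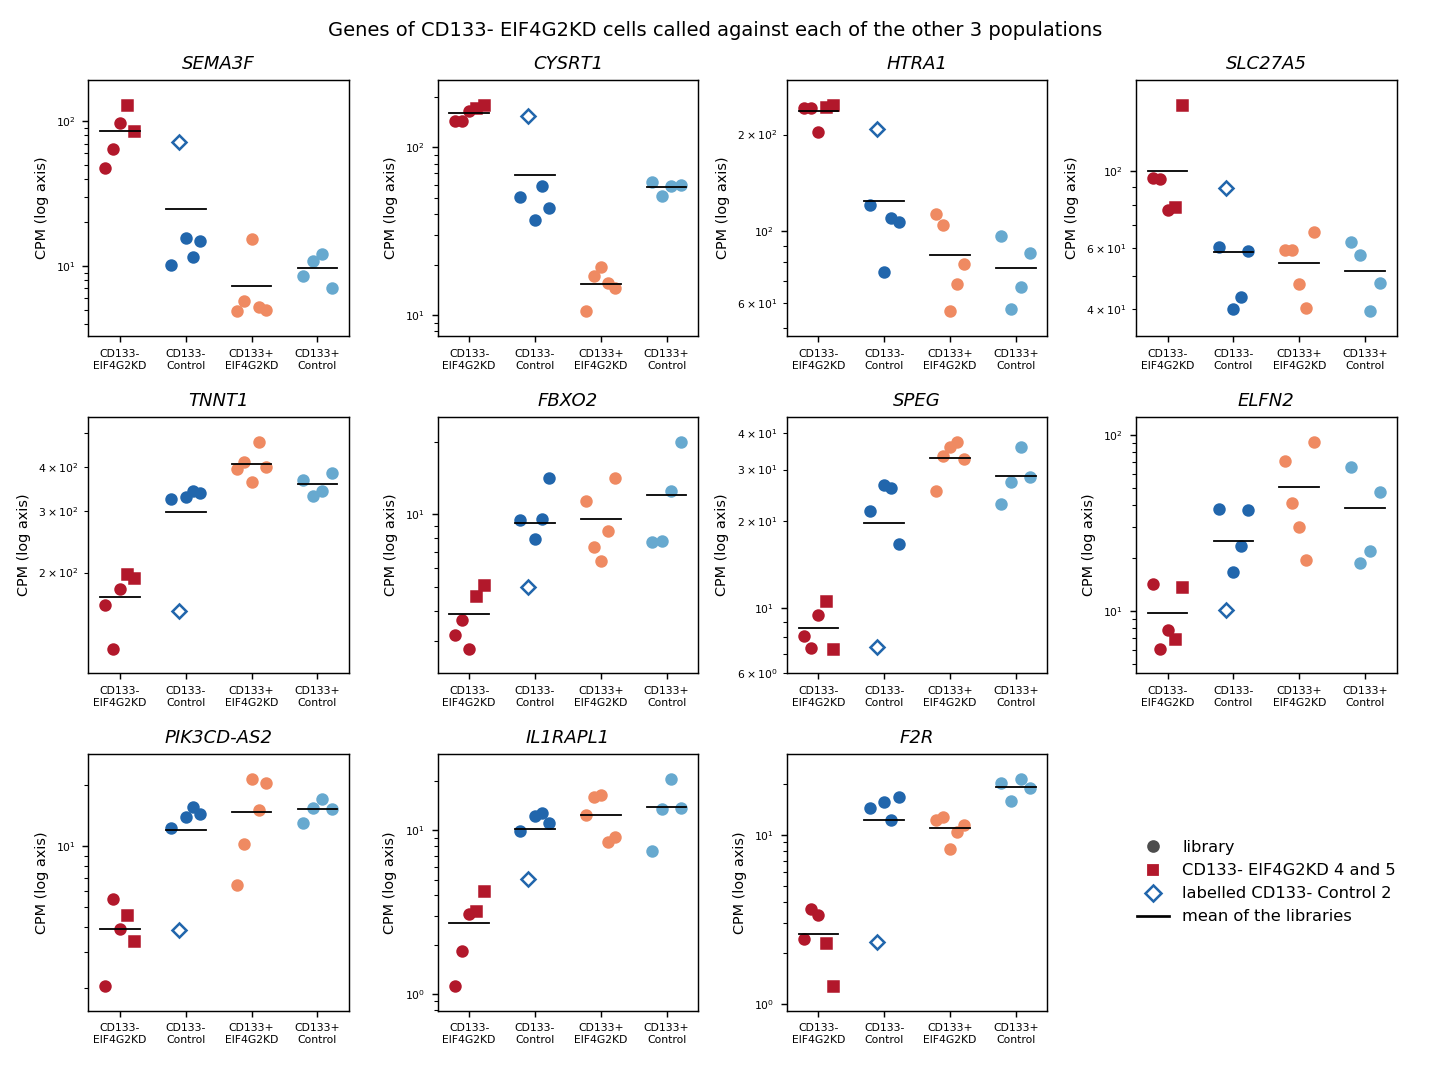
Level of each of the 11 genes in every library, in CPM on a log axis, by population, with CD133- EIF4G2KD at the left of each panel. Squares are CD133- EIF4G2KD libraries 4 and 5, the open diamond is the library labelled CD133- Control 2, and the line is the mean of all libraries of the population; SEMA3F averaged 84.9 CPM in CD133- EIF4G2KD, and the diamond lies at 71.2 CPM, near the CD133- EIF4G2KD points.

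F2R, the thrombin receptor PAR1, had 2.42, 3.66, 3.36, 2.30 and 1.28 CPM in CD133- EIF4G2KD, against 2.32 to 21.3 CPM (median 13.6) in the 14 others. The lowest of the 14 was again the library labelled CD133- Control 2, and the other 13 began at 8.25 CPM. F2R fell by 2.43 ± 0.33 on the log2 scale (edgeR adjusted p = 0.000159). IL1RAPL1, an interleukin-1 receptor family member known for synapse formation, had 1.12, 1.83, 3.08, 3.22 and 4.28 CPM, against 5.03 to 20.7 CPM (median 12.3) in the 14 others. It was the only 1 of the 11 whose 5 libraries did not overlap the 14, and its log2 fold change was -2.26 ± 0.31 (edgeR adjusted p = 0.000173).

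TNNT1, the slow skeletal muscle troponin T, had 161, 121, 179.8, 198 and 193 CPM in CD133- EIF4G2KD, against 155 to 472 CPM (median 353) in the 14 others, of which all but the library labelled CD133- Control 2 were at or above 323 CPM. Its log2 fold change was -1.05 ± 0.12 (edgeR adjusted p = 3.58e-05). The others were SPEG, a kinase of striated muscle (-1.64), ELFN2, a transmembrane regulator of phosphatase 1 (-1.83), FBXO2, an F-box protein that binds glycoproteins (-1.39), and the long non-coding RNA PIK3CD-AS2 (-1.96), which lies antisense to PIK3CD. Strand use in the counting is not given in the sources used here, so PIK3CD-AS2 and PIK3CD reads may not be separable.

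The intersection-union calls were close to the threshold. None was made without CD133- EIF4G2KD libraries 4 and 5 (287 genes at an unadjusted p below 0.05, and 6 calls by DESeq2), without the replicate block (289 unadjusted), or in 13 of the 19 fits that left out 1 library. The 11 genes were followed in 38 fits, the main fit among them. They had been chosen on these same libraries, most of which the other fits reused. Passing there is therefore no independent evidence. In 35 of the 38 fits all 11 had an unadjusted p below 0.05 in this test and an adjusted p below 0.05 against the mean of the 3. Those of the 35 that left out the library labelled CD133- Control 2 together with another change were added after the values were seen. So were the 3 others. Of these 3, DESeq2 without CD133- EIF4G2KD 4 and 5 gave the same for all 11. The fit without those libraries and without the block lost the adjusted p of ELFN2 and SLC27A5, and DESeq2 without every library numbered 4 or 5 lost that of FBXO2, with 10 of 11 at an unadjusted p below 0.05. Without libraries 4 and 5 their unadjusted p was 1.10e-05 to 0.000857, and their adjusted p was 0.116 to 0.588. Without CD133+ EIF4G2KD 3 the test called 18 genes, and without CD133- EIF4G2KD 2 it called 9.

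Leaving out each library in turn was planned, and the closer look at the fit without the library labelled CD133- Control 2 was chosen after the values were seen. In that fit 33 genes were set apart from all 3 populations (0.320% of those tested), 16 higher and 17 lower, and all 11 were among them. In that library the 33 genes, which were chosen without it, lay a median of 0.97 of the way from the mean of the other 4 CD133- Control libraries to the mean of CD133- EIF4G2KD on the log2 scale (range 0.56 to 1.45). For all 33 it lay beyond the other 4 in that direction. For EIF4G2 the same position was 0.38. With CD133- EIF4G2KD libraries 4 and 5 also left out, 20 genes were called (0.189%), 18 of them among the 33. Without the replicate block, 18 genes were called in place of 33.

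The genes added were of varied kinds. The values here are the fold change nearest to 0 of the 3 pairwise ones, without the library labelled CD133- Control 2. Higher were WNT7B (0.89), a Wnt ligand of epithelia, HOTAIRM1 (0.74), a long non-coding RNA of the HOXA cluster, PCDH1 (0.98), a protocadherin of epithelial cells, TMOD1 (1.37), which caps the pointed ends of actin filaments, and FSCN1 (1.00), which bundles actin. WNT7B and HOTAIRM1 were also called without libraries 4 and 5, and PCDH1, TMOD1 and FSCN1 were not. Lower were FXYD5 (-1.01), a regulator of the sodium pump and of adhesion, ANXA6 (-0.90), a calcium-dependent membrane-binding annexin, FHL2 (-1.29), a LIM domain cofactor, IFI35 (-0.78), an interferon-induced protein, BRSK1 (-1.30), a kinase of neuronal polarity, and KCTD17 (-1.40), a cullin-3 adaptor. Of these, all but FHL2 were also called without libraries 4 and 5. FXYD5 had 21.3 to 36.8 CPM in CD133- EIF4G2KD and 21.7 CPM in the library labelled CD133- Control 2, against 44.4 to 98.7 CPM in the other 13.

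All 5 CD133- EIF4G2KD libraries lay above all 14 others for 8 of the 208 higher genes, and for 11 of all genes tested (0.106%). All 5 lay below for 4 of the 270 lower genes, and for 8 of all genes tested (0.0774%). The called genes had been chosen on these same libraries. Among the 8 higher genes were ALDH3A2, a fatty aldehyde dehydrogenase, and CA12, a carbonic anhydrase of the cell surface. Without the library labelled CD133- Control 2 the counts were 29 of 208 and 35 of 270, and all 11 genes set apart were included. Of all genes tested, 37 (0.358%) then lay above and 42 (0.406%) below.

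The promoters of 3 of the set-apart genes that rose and 1 that fell are printed here to show how unlike they are. Each is the 250 bases before the start, 5′ to 3′, from RefSeq (GRCh38.p14), with capitals for matches to GGGCGG on either strand, the core of the GC box bound by SP and KLF factors.
SEMA3F (chr3:50154808-50155057, plus strand): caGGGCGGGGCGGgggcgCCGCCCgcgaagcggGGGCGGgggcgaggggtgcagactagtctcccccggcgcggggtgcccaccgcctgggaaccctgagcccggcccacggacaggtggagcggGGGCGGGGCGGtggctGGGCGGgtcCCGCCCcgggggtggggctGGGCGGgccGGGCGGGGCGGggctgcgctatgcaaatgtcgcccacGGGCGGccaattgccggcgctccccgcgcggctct
CYSRT1 (chr9:137224924-137225173, plus strand): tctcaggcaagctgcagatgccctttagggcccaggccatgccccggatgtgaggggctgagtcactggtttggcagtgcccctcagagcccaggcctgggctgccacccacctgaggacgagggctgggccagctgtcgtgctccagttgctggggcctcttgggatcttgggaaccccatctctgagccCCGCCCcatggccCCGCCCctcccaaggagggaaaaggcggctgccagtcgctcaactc
HTRA1 (chr10:122461303-122461552, plus strand): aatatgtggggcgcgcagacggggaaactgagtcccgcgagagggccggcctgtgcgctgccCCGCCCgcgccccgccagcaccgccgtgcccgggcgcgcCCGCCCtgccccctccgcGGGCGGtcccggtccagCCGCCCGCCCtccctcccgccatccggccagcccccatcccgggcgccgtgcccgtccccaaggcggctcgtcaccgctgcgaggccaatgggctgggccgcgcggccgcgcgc
IL1RAPL1 (chrX:28587196-28587445, plus strand): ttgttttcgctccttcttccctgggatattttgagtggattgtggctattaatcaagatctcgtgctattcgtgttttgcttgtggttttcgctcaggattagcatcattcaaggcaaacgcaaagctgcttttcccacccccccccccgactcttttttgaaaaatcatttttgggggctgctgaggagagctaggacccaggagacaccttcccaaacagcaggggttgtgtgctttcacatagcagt

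With overlapping matches counted, the SEMA3F window held 12 matches, that of HTRA1 held 5, that of CYSRT1 held 2 and that of IL1RAPL1 held 0. The windows not printed differed less by direction. That of SLC27A5, which rose, held 0. Among genes that fell, ELFN2 held 3, FBXO2 3, PIK3CD-AS2 4, TNNT1 2 and SPEG 1, so IL1RAPL1 does not stand for them. The SEMA3F window was 82.0% G and C and that of IL1RAPL1 47.6%, which was the lowest. Other windows of genes that fell had 80.4% (ELFN2), 72.0% (FBXO2), 66.8% (TNNT1 and SPEG) and 64.8% (PIK3CD-AS2). CYSRT1 also had 1 match to TGACTCA (either strand), the core of the AP-1 motif, which 4.20% of all windows and 2.43% of those of the genes tested held. Of the 10 set-apart genes with a window (F2R had none), 8 held GGGCGG, against 42.6% of all 35116 windows and 69.1% of the windows of the genes tested. It was in 72.2% of the windows of the higher genes and 68.0% of those of the lower genes. A match is a stretch of letters and not a measured binding site.

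The 24 largest changes against the mean of the 3 populations held more than 1 pattern. All 12 rises passed the edgeR adjusted p against CD133+ EIF4G2KD and all 12 against CD133+ Control, but only SEMA3F, TMOD1, MSMP and CYSRT1 of them passed against CD133- Control. Of the 12 falls, 10 passed against CD133+ EIF4G2KD, 11 against CD133+ Control and 7 against CD133- Control.

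Several of the largest rises were high in both CD133- populations. PAX2, a transcription factor of kidney and Müllerian duct, had 40.1, 29.9, 25.5, 51.1 and 42.4 CPM in CD133- EIF4G2KD and 18.9 to 26.5 CPM in CD133- Control, against 2.37 to 10.8 CPM in CD133+ EIF4G2KD and 1.72 to 4.63 CPM in CD133+ Control. All CD133- libraries were above all CD133+ ones, and between the CD133- populations only the third CD133- EIF4G2KD library lay within the range of the controls. Its log2 fold change was 2.30 ± 0.18 against the mean of the 3 (edgeR adjusted p = 6.33e-07), but against CD133- Control alone it was 0.63 (adjusted p = 0.141). TNS4, a tensin of focal adhesions, had 26.0 to 45.4 CPM in CD133- EIF4G2KD and 14.6 to 49.0 CPM in CD133- Control, against 3.79 to 7.30 CPM in the CD133+ libraries. The non-coding RNA LINC02582 (2.14) and the transporters SLC47A2 (2.29) and ATP10A (1.68) likewise passed against both CD133+ populations and not against CD133- Control, where their log2 fold changes were 0.43, 0.69 and 0.46. SLC47A2 overlaps ALDH3A2 on the opposite strand.

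NRP2, a neuropilin that serves as receptor for SEMA3F, also rose against the mean of the 3 (2.08 ± 0.27, edgeR adjusted p = 0.000120). It had 9.14, 9.75, 6.71, 3.69 and 8.99 CPM in CD133- EIF4G2KD, against 0 to 5.65 CPM in the 14 others. Only the fourth CD133- EIF4G2KD library overlapped the 14, and against CD133- Control the log2 fold change of 0.96 did not pass (adjusted p = 0.125).

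CD133+ EIF4G2KD cells were the lowest of the 4 populations for some of the rises. FSCN1 had 146 to 212 CPM in CD133- EIF4G2KD and 68.9 to 154 CPM in CD133- Control, against 11.8 to 25.5 CPM in CD133+ EIF4G2KD and 49.2 to 95.6 CPM in CD133+ Control. Its log2 fold change was 3.31 against CD133+ EIF4G2KD and 1.38 against CD133+ Control. MSMP, a secreted ligand of the chemokine receptor CCR2, had 35.0 to 86.9 CPM in CD133- EIF4G2KD and 2.98 to 45.7 CPM in CD133- Control, against 1.89 to 6.54 CPM in CD133+ EIF4G2KD and 13.5 to 31.4 CPM in CD133+ Control. The highest CD133- Control value was that of the library so labelled with number 2. Its log2 fold change was 3.46 against CD133+ EIF4G2KD and 1.25 against CD133+ Control. MSMP overlaps RGP1, and TMOD1 overlaps TSTD2, on the opposite strand.

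Among the falls, NID2, a basement membrane nidogen, was low in both populations labelled EIF4G2KD. It had 1.12, 0.610, 0.839, 2.30 and 1.28 CPM in CD133- EIF4G2KD and 0.473 to 1.79 CPM in CD133+ EIF4G2KD, against 1.16 to 9.45 CPM in CD133- Control and 6.90 to 17.5 CPM in CD133+ Control. The lowest CD133- Control value was again that of the library so labelled with number 2. Its log2 fold changes were 0.33, -2.35 and -3.31 against CD133+ EIF4G2KD, CD133- Control and CD133+ Control. PPARG, the adipogenic nuclear receptor, had 2.42 to 10.1 CPM in CD133- EIF4G2KD and 3.89 to 12.8 CPM in CD133+ EIF4G2KD, against 6.20 to 49.9 CPM in CD133- Control and 30.3 to 64.4 CPM in CD133+ Control. The fold changes of PPARG were -0.03, -2.00 and -2.75 in the same order. Neither gene differed from CD133+ EIF4G2KD by the test (edgeR adjusted p = 0.786 for NID2 and 0.974 for PPARG). ROBO3, an axon guidance receptor (-1.68), and ZNF467, a zinc finger factor (-1.66), passed against each of the 3 populations singly.

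**Figure D3:**
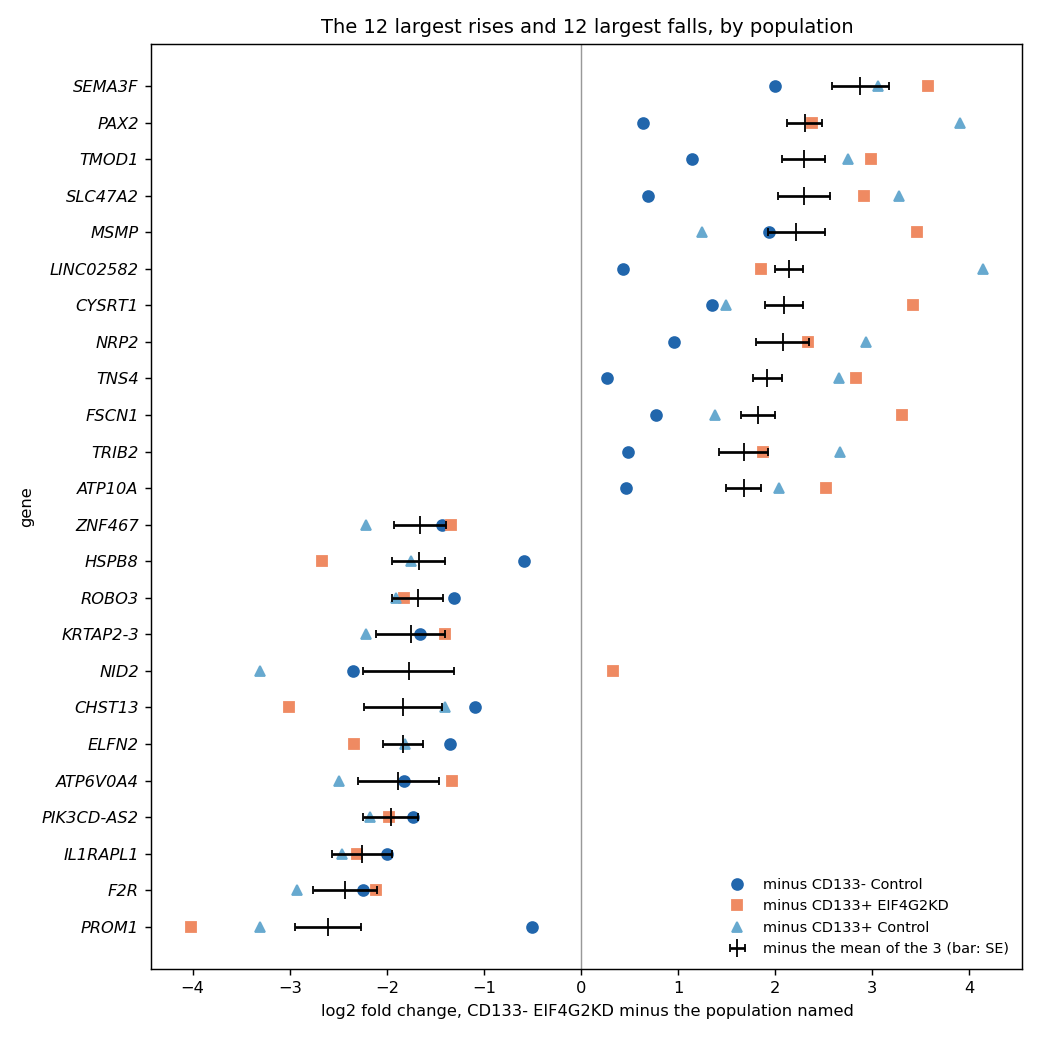
Log2 fold change (x axis) of the 12 largest rises and the 12 largest falls (y axis) of CD133- EIF4G2KD against CD133- Control (circles), CD133+ EIF4G2KD (squares), CD133+ Control (triangles) and the mean of the 3 (black, with SE). PAX2, TNS4 and LINC02582 lie at 0.63, 0.27 and 0.43 against CD133- Control and above 1.8 against both CD133+ populations, while NID2 lies at 0.33 against CD133+ EIF4G2KD.

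Without CD133- EIF4G2KD libraries 4 and 5, 206 of 10542 genes were called (1.95%), 89 higher and 117 lower. Without the replicate block 66 were called, and DESeq2 called 197. The 478 genes had been chosen with those libraries, and this fit reused all the other libraries. A kept direction or call is therefore no independent evidence. All 478 genes kept their direction, and 78 of the 208 higher genes and 106 of the 270 lower genes kept their call. Their median log2 fold changes were 0.64 and -0.81 without the libraries, and 0.76 and -0.91 with them. All of the 24 largest rises and falls, which had been chosen with those libraries, still had an adjusted p below 0.05 (2.45% of all genes tested did). The rises had a median of 0.89 of their full size and the falls 1.00. SEMA3F was at 2.30 ± 0.32 in place of 2.88, and IL1RAPL1 at -2.65 ± 0.39 in place of -2.26 (edgeR adjusted p = 0.000255 and 0.000418). EIF4G2 was at -1.02 in place of -1.56. With the library labelled CD133- Control 2 also left out, 287 genes were called.

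The lower genes that lost their call without libraries 4 and 5 were poor in G and C. Their transcripts had a median of 45.5% G and C (164 genes, 161 with a value), against 50.1% over all genes tested. The 117 lower genes called without the libraries had 55.8%. The higher genes were richer in G and C than all genes tested, whether or not they kept their call. All 208 had 56.3%, those called without the libraries had 57.4%, and those that lost their call had 55.5%. The part of the skew of libraries 4 and 5 in the calls was not tested.

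When every library numbered 4 or 5 was left out of all populations, 112 of 10424 genes were called (1.07%), 108 of them among the 478, and 21 of the 24 largest rises and falls kept an adjusted p below 0.05. TRIB2 (edgeR adjusted p = 0.0545), NID2 (0.108) and KRTAP2-3 (0.115) did not. The libraries left out were then read for the genes so chosen, a reading added after the values were seen. Of the 112 genes, 111 had the same direction in the libraries numbered 4, 110 in those numbered 5 and 109 in both (97.3%, against 49.6% of all 10264 genes with a value). In size, the median was 1.12 in the fit, 1.07 in the libraries numbered 4 and 1.10 in those numbered 5. Over all genes it was 0.16, 0.14 and 0.15, so most of the genes compared with barely differed. The 112 include EIF4G2, the target of the shRNA, and PROM1, the gene of the sorted antigen. They also include PAX2, TNS4, LINC02582 and SOX17, which were high in both CD133- populations. The libraries left out come from the same knock-down pool, so the reading is no independent replication of the knock-down. F2R was at -2.19 in the fit, and at -2.31 and -3.06 in the libraries numbered 4 and 5.

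**Figure D4:**
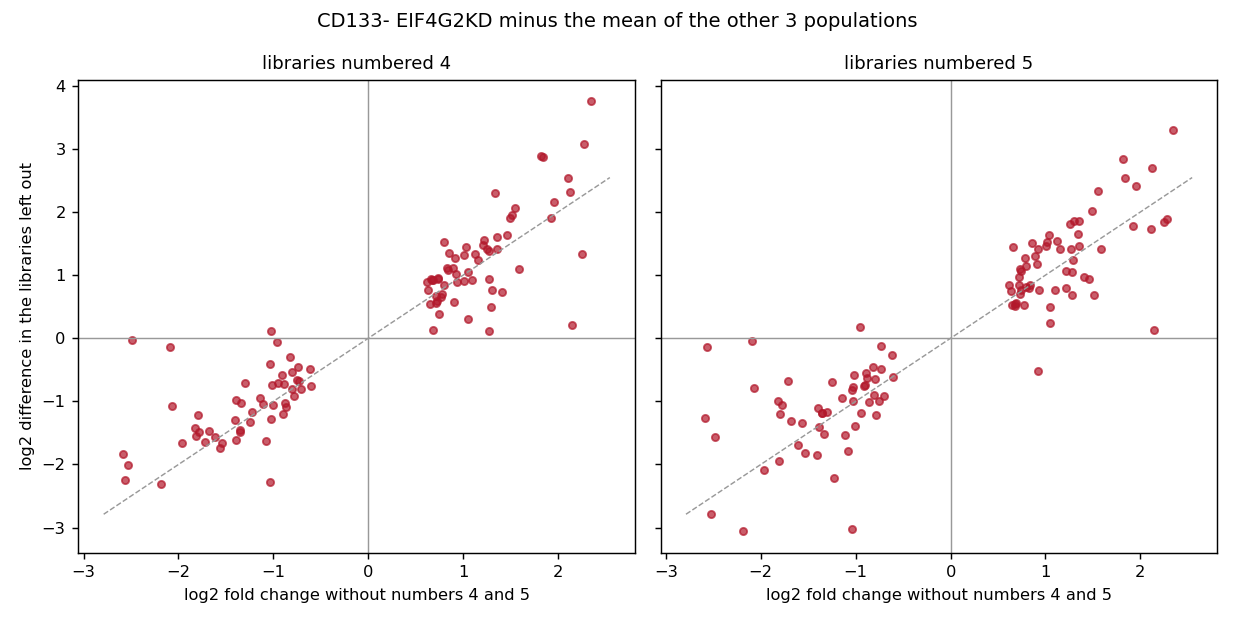
Log2 difference of CD133- EIF4G2KD from the mean of the other 3 populations in the libraries numbered 4 (left) and 5 (right), which were left out of the fit (y axis), against the log2 fold change in the fit without them (x axis), for the 112 genes called in that fit. The dashed line marks equal values; 109 genes have the sign of the fit in both panels.

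Gene lists were counted by the edgeR adjusted p alone, which 10.5% of all genes tested passed (620 genes or 6.0% higher and 469 genes or 4.54% lower). Without CD133- EIF4G2KD libraries 4 and 5, 2.45% of all genes tested passed. Lower counts in the lists below are therefore to be read beside that lower share. Of the 5 embryonic lineage markers, which the study chose on these samples so that their direction is no independent evidence, SOX17, PAX2 and FGF18 rose (1.50, 2.30 and 1.17) and PROM1 fell. The median of the list was 1.17 against the mean of the 3, but -0.11 against CD133- Control. SOX17, an endoderm and endometrial gland factor, had 8.39 to 30.0 CPM in CD133- EIF4G2KD and 9.92 to 40.0 CPM in CD133- Control, against 4.08 to 13.6 CPM in CD133+ EIF4G2KD and 0.775 to 2.30 CPM in CD133+ Control. Of 7 Müllerian and endometrial genes tested, 4 rose and none fell (list median 0.60), with PAX2 and SOX17 in both lists. The list median was 0.13 against each of CD133- Control and CD133+ Control, but 1.2 against CD133+ EIF4G2KD. WNT7A, a Wnt ligand of uterine epithelium, was among the genes that rose, at 0.60. It was at 0.13 against CD133- Control and 0.26 against CD133+ Control, but at 1.42 against CD133+ EIF4G2KD. Without libraries 4 and 5, PAX2 and SOX17 still passed and WNT7A did not (adjusted p = 0.115).

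Of 24 epithelial adhesion genes and keratins, 5 were higher and KRT80 was lower (list median 0.02), but without libraries 4 and 5 only KRT13 passed, and without the block 2 were higher and none lower. KRT13, a keratin of stratified epithelia, was at 1.25, and KRT18, a keratin of simple epithelia, at 0.47. KRT13 was at 2.17 against CD133+ EIF4G2KD and 1.59 against CD133+ Control, but at 0.003 against CD133- Control. It thus did not set CD133- EIF4G2KD apart from CD133- Control. KRT18 had 2229.6 to 3374 CPM in CD133- EIF4G2KD, against 1595 to 2545 CPM in the 14 others, so the groups overlapped, and it did not pass without libraries 4 and 5 (adjusted p = 0.192). Of 11 mesenchymal genes, CAV1, the main protein of caveolae, rose (0.74), and 4 fell, among them FHL2 (-1.58) and CCN1 (-0.76), a matricellular target of YAP. The list had a median of -0.49, and of -0.03 without libraries 4 and 5, when 1 rose and 3 fell and CCN1 did not pass (adjusted p = 0.0838). In the list of integrins, laminins, collagens and nidogens, 1 of 23 genes rose and 5 fell, with NID2, ITGB8 (-0.76), LAMB3 (-0.44) and COL4A2 (-0.38) among the falls. Without CD133- EIF4G2KD 4 and 5 none rose and 3 fell, and when every library numbered 4 or 5 was left out, none of the 23 passed as lower. LAMB3 had a median of 421 CPM in CD133- EIF4G2KD, 440 in CD133- Control and 441 in CD133+ Control, against 823 in CD133+ EIF4G2KD. The medians of COL4A2 in the same order were 52.4, 59.4, 61.7 and 95.5 CPM, so CD133+ EIF4G2KD was the population that stood apart for both genes.

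Of 20 genes of actin and focal adhesion, 2 rose, FSCN1 among them, and 3 fell, all tropomyosins (TPM2 at -0.56 and TPM4 at -0.40). Without libraries 4 and 5 FSCN1 alone passed (TPM2 adjusted p = 0.0922, TPM4 adjusted p = 0.230), and without the block no gene of this list was lower either. Of 22 genes of coagulation and proteolysis, 3 rose and 5 fell, and without libraries 4 and 5, 2 rose and 1 fell. F3, tissue factor, rose by 1.60 ± 0.17 (edgeR adjusted p = 1.08e-05) while F2R fell. F3 had 58.7, 154, 67.7, 145 and 144 CPM in CD133- EIF4G2KD and 77.0 to 142 CPM in CD133- Control, against at most 35.5 CPM in the CD133+ libraries, so all CD133- libraries were above all CD133+ ones. Of 12 genes of PPARG and lipid storage, none rose and 3 fell, PPARG (-1.59), its target ANGPTL4 (-1.46) and the acyl-CoA ligase ACSL4 (-1.16), with a list median of -0.25. ACSL4 did not pass without libraries 4 and 5 (adjusted p = 0.135).

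Interferon and antigen presentation genes fell in 5 of 25 cases and rose in none. IFI35 had 33.8, 43.9, 55.7, 48.4 and 35.1 CPM in CD133- EIF4G2KD, against 41.8 to 116 CPM in the 14 others, and was at -0.94 ± 0.12 (edgeR adjusted p = 9.78e-05). IFI27 (-0.92) and IRF7 (-0.82), the master factor of type I interferon, fell in the fit of all libraries but not without libraries 4 and 5, and the median of the list was -0.04. Of 19 aldehyde dehydrogenase and retinoid genes, 6 rose and 3 fell, but without libraries 4 and 5, and likewise without the block, 2 rose and none fell. Those 2 were ALDH3A2 and DHRS3 without libraries 4 and 5. ALDH3A2 (0.60) had 83.0 to 98.5 CPM in CD133- EIF4G2KD, above all 14 others at 37.2 to 77.4 CPM. DHRS3, a retinal reductase, rose by 0.86, and it was at 2.11 against CD133+ EIF4G2KD and -0.03 against CD133+ Control.

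Of 15 p53 target and growth arrest genes 3 rose, SESN1 (1.41), a sestrin, and PLK3 (0.86), a polo-like kinase, among them, and GADD45A (-0.68) fell. Without CD133- EIF4G2KD 4 and 5, 2 rose and none fell, with neither PLK3 (adjusted p = 0.0521) nor GADD45A (0.0581) passing, and none passed when every library numbered 4 or 5 was left out. Of 22 immediate early genes EGR1 rose (0.69) and 2 fell, JUN (-0.62) among them, and both EGR1 and JUN passed without CD133- EIF4G2KD 4 and 5.

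Genes of growth and energy metabolism passed at a share near that of all genes. Of 52 nuclear genes of oxidative phosphorylation 4 rose and none fell, of 35 proliferation genes 4 rose and none fell, and of 73 cytosolic ribosomal protein genes 5 rose and 2 fell. In these lists the changes that passed reached 0.46 (MKI67) upwards and -0.80 (RPL39) downwards, and none of the members passed without libraries 4 and 5. Of the 5 kinesin-1 chains tested, KLC1 rose (0.35, edgeR adjusted p = 0.0244) and KLC3 fell (-0.70, adjusted p = 0.00835), and neither passed without libraries 4 and 5. KLC1 overlaps XRCC3, a recombination gene, on the opposite strand. Of the EIF4G family and the cap complex, only EIF4G2 of 12 genes tested passed, at -1.56 ± 0.26 (edgeR adjusted p = 0.00104). Over all lists 95 distinct genes passed, 48 higher and 47 lower. Without libraries 4 and 5, 31 passed, while the share of all genes tested fell from 10.5% to 2.45%. Without the replicate block 22 passed, while the calls by all thresholds over all genes fell from 478 to 192.

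**Figure D5:**
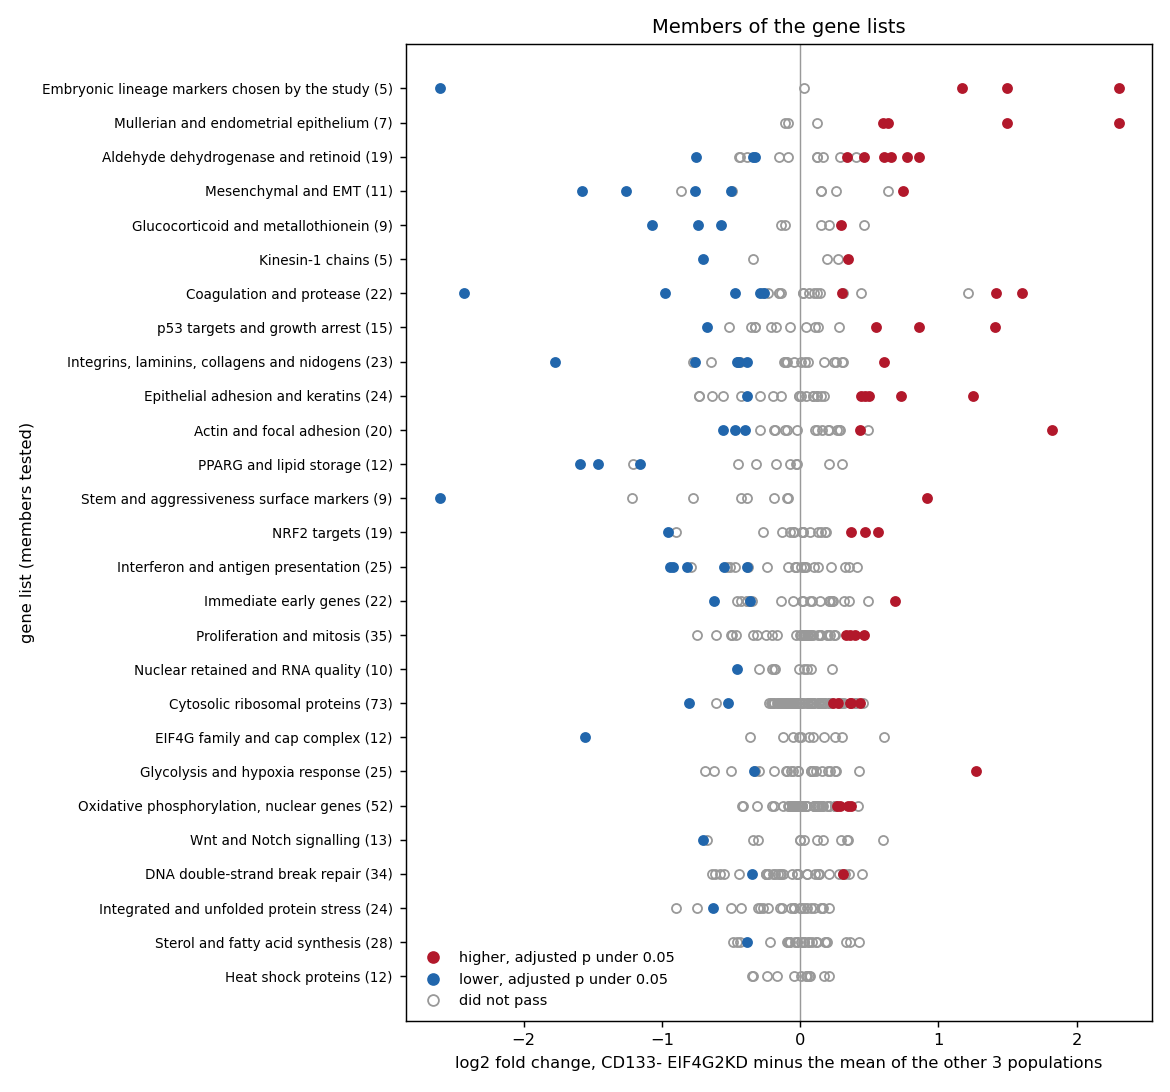
Log2 fold change of each tested member (points) of the gene lists (y axis, number tested in parentheses), CD133- EIF4G2KD minus the mean of the other 3 populations (x axis). Filled points passed an edgeR adjusted p of 0.05, higher in red and lower in blue, and open points did not; the embryonic lineage markers span -2.61 (PROM1) to 2.30 (PAX2).

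By chromosome, the medians of all genes tested lay between -0.10 and 0.10 except on chromosome 9 (445 genes), where the median was 0.15 and 6.97% of genes were called. Against single populations that median was 0.46 for CD133+ EIF4G2KD, 0.09 for CD133- Control and -0.07 for CD133+ Control. Against CD133+ EIF4G2KD other chromosomes were shifted too, with medians of 0.29 on chromosome 21, 0.23 on chromosome 19 and -0.22 on chromosome 1. SLC27A5 and TNNT1 lie on chromosome 19, and FBXO2 and PIK3CD-AS2 on chromosome 1. The part of these shifts in their values was not tested. Without CD133- EIF4G2KD 4 and 5 the chromosome 9 median was 0.12. Of its genes 1.35% were then called, against 1.95% of all genes tested. Of the 12 largest rises, 3 (TMOD1, MSMP and CYSRT1) lie on chromosome 9, and the part of the chromosome-wide shift in their values was not tested. Among 26 small or structured non-coding RNAs, a group picked after the values were seen, 6 rose and none fell by the adjusted p, of which TERC, SCARNA22 and SNORA7A passed without CD133- EIF4G2KD 4 and 5. TERC, the RNA template of telomerase, was at 1.42, with 1.57, 0.21 and 2.50 against CD133- Control, CD133+ EIF4G2KD and CD133+ Control. SCARNA22, a guide RNA of Cajal bodies, was at 1.48, with 1.67, 0.02 and 2.76. Both were thus near their level in CD133+ EIF4G2KD.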

How the data were processed

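MARS-seq read counts per gene were taken as deposited for 19 libraries. The authors' processing notes name cutadapt, STAR 2.4.2a, HTSeq, DESeq2 and the builds hg38 and mm10, and whether HTSeq used strand is not given in the sources used here. The third CD133+ Control sample, labelled as having failed its quality check, did not enter. Deposited normalized values and the authors' fold changes and p-values were not used. All 12558 genes were filtered by filterByExpr (minimum count 10, total 15), which left 10338. TMM factors and edgeR 4.0.16 quasi-likelihood fits (R 4.3.3) of population and replicate number gave each contrast, with Benjamini-Hochberg adjustment over all genes tested. The replicate number was kept as a block because the comparison was defined with it. The alternatives were DESeq2 1.42.0, limma 3.58.1 with voom, other scalings and filters, no block, and libraries left out. The main fit was tested on simulated counts. These held no replicate effect, no skew by base composition and no difference among the other 3 populations, so the test does not cover those features. Within a population no 2 libraries agreed within sampling noise (36 pairs, chi-square per degree of freedom 5.15 to 30.2). Named genes were EIF4G2 and PROM1, the 12 largest rises and falls, all genes of the intersection-union test, and, from every list, at most 3 genes past an adjusted p of 0.05, smallest first. Other genes in the text were chosen after their values were seen. The members and lists were chosen with earlier results of these data known. Overlaps of genes came from GENCODE v44 and promoters from RefSeq GRCh38.p14.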

Additional observations from a re-analysis of the deposited data

Results flagged for a closer look

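In each population, the level of each named gene was examined for 1 library that stood far from the rest by Dixon's criterion. Of 340 groups of 4 or 5 libraries, 23 had one, where chance flags about 1 in 20, and 8 of the 23 lay in the library labelled CD133- Control 2. That library had 71.2 CPM of SEMA3F (10.2 to 15.6 in the other 4 CD133- Controls), 2.32 of F2R (12.2 to 16.7), 5.03 of IL1RAPL1 (9.98 to 12.8), 3.87 of PIK3CD-AS2 (12.3 to 15.7), 1.16 of NID2 (5.64 to 9.45), 155 of TNNT1 (323 to 341), 5.42 of FHL2 (14.3 to 19.2) and 17.4 of NOTCH3 (29.4 to 35.9). All 8 values lay on the side of CD133- EIF4G2KD.

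Among CD133- EIF4G2KD libraries, number 5 had 0.428 CPM of PROM1 (1.38 to 1.83 in the other 4), number 3 had 204 of HTRA1 (242 to 248), number 4 had 293 of CCN1 (451 to 538), and number 1 had 26.5 of JUN (47.3 to 58.6) and 24.8 of NOTCH3 (19.8 to 21.0). In the other CD133- Controls, number 3 had 18.9 CPM of PAX2 (24.4 to 26.5), number 5 had 142 of F3 (77.0 to 85.4) and number 1 had 49.1 of STC2 (115 to 156).

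Among CD133+ EIF4G2KD libraries, number 3 had 12.9 CPM of PROM1 (21.8 to 26.4 in the other 4) and 15.4 of SEMA3F (4.86 to 5.72). Number 4 had 66.7 of TPM2 (23.2 to 29.8), 73.3 of BRCA1 (91.0 to 99.3) and 110 of EGR1 (162 to 178), and number 1 had 134 of GADD45A (295 to 382). The fifth CD133+ Control had 109 CPM of JUN (53.5 to 59.8 in the other 3).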

How the results depend on the processing

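The 85 named genes were followed in 26 settings and none reversed, but 44 lost their adjusted p without the replicate block, 36 without CD133- EIF4G2KD 4 and 5, and 46 without all libraries numbered 4 or 5. Without the replicate block there were 192 calls against the mean of the other 3 populations in place of 478, 0 genes set apart in place of 11, 1 call against CD133- Control in place of 80, 606 against CD133+ EIF4G2KD in place of 962, 250 against CD133+ Control in place of 663, 66 without CD133- EIF4G2KD 4 and 5 in place of 206, and 22 list genes in place of 95. Of 27 same-numbered pairs of libraries 24 deviated together by a correlation over 0.1 (median 0.42, lowest -0.23), and 12 of 19 libraries correlated best with their own number. Without CD133- EIF4G2KD 4 and 5 the counts were 206, 0 set apart, 3 against CD133- Control, 347 against CD133+ Control and 31 list genes, and PROM1 was at -1.97 (exact permutation p = 0.0529). Without all libraries numbered 4 or 5 they were 112, 0, 0, 510 against CD133+ EIF4G2KD and 183 against CD133+ Control, and edgeR gave 465 genes against CD133- Control at an unadjusted p below 0.05 and DESeq2 called 0. In fits of only the 2 populations compared they were 0 against CD133- Control and 612 against CD133+ EIF4G2KD. With all libraries DESeq2 gave 28 genes set apart and 177 calls against CD133- Control, limma-voom gave 58 set apart, and the adjusted p alone gave 1089 against the mean of the 3. Leaving out CD133- EIF4G2KD 2, 4 and 5 gave 193 and leaving out CD133+ EIF4G2KD 3 with CD133- EIF4G2KD 4 and 5 gave 286. Among settings chosen after seeing the data, the library labelled CD133- Control 2 left out gave 233 calls and 18 set apart without the block, 63 set apart by DESeq2, and 287 calls and 20 set apart with CD133- EIF4G2KD 4 and 5 also out. Leaving out each library in turn gave 298 to 922 calls against the mean of the 3, 0 to 33 set apart, 0 to 389 against CD133- Control, 778 to 1346 against CD133+ EIF4G2KD and 378 to 1021 against CD133+ Control. The cause of these moves was not tested. Genes at a few CPM rest on few counts at these depths.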
